A study of Mus musculus with 4 samples.

Results

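The 6 genes described here belong to the storage, reuptake and breakdown of noradrenaline. Slc6a2 encodes the transporter that takes noradrenaline back up, Slc18a2 and Slc18a1 encode the vesicular monoamine transporters, Cyb561 encodes an electron carrier of the vesicle membrane, and Maoa and Maob encode the monoamine oxidases. They were taken by symbol, and all 6 were found among the 21937 genes of the deposited table. RNA was sequenced from superior cervical and stellate ganglia, 2 sympathetic ganglia of neck and upper chest, in adult mice (postnatal day 60). The Hand2 line has a control (Hand2flox/+) and a mutant (Hand2flox/del), the latter with a floxed and a deleted Hand2 allele. The Gata3 line has a control (Gata3flox/+) and a mutant (Gata3flox/flox). Controls and mutants alike carried DbhCreERT2, a tamoxifen-dependent Cre recombinase under the dopamine beta-hydroxylase promoter, and tamoxifen was given for 10 days, so recombination is directed to noradrenergic cells and not to glia, vessels or other cells of the ganglion. Each genotype is 1 pool: 16 ganglia of 4 mice for both controls and the Hand2 mutant, and 32 ganglia of 8 mice for the Gata3 mutant, whose ganglia the design text calls rudimentary.

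A sympathetic varicosity releases noradrenaline from vesicles and then recovers most of it. The noradrenaline transporter carries it back across the plasma membrane with sodium and chloride, the vesicular transporter exchanges it for protons that the vacuolar proton pump has moved in, and transmitter left in the cytosol is deaminated by monoamine oxidase on the outer mitochondrial membrane. Inside the vesicle, dopamine beta-hydroxylase consumes ascorbate, and cytochrome b561 passes electrons inward to restore it.

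Of the 6 genes, Slc18a2 and Maoa had a promoter sequence in the RefSeq table for GRCm38.p6. The 250 bases before the start are shown for these 2, a storage gene and a breakdown gene, because Hand2, the gene targeted in 1 of the lines, encodes a basic helix-loop-helix factor, a class that binds the E-box CANNTG. Capitals mark each match, on either strand, to CANNTG, to its special case CATCTG, to the GATA-type motif AGATAA or to the cyclic AMP response element TGACGTCA. The Slc18a2 stretch is chr19:59260628-59260877 and the Maoa stretch is chrX:16619448-16619697, both on the plus strand.
Slc18a2: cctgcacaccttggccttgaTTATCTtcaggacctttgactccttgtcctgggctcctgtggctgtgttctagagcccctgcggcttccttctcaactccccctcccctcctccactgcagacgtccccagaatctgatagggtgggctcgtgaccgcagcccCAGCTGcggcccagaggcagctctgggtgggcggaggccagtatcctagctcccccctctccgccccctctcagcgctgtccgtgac
Maoa: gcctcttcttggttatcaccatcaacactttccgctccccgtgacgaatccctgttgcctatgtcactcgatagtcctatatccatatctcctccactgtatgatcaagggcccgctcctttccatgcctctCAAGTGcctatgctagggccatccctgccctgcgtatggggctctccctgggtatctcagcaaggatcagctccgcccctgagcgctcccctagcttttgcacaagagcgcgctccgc
The Slc18a2 stretch held 1 E-box (CAGCTG, starting 87 bases before the start) and 1 AGATAA match (on the minus strand, starting 230 bases before). The Maoa stretch held 1 E-box (CAAGTG, starting 118 bases before the start) and no AGATAA. Neither held CATCTG or TGACGTCA in this window. Among all 32851 promoter stretches of the same length, 66.2% held CANNTG, 14.4% CATCTG, 9.99% AGATAA and 1.55% TGACGTCA, so an E-box in such a stretch is the common case. The matches are letters only, and binding was not measured.

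The values compared come from a single deposited comparison of 2 columns, which does not name its line. Side A stands for the control column and side B for the second group mean. From the sheet's title side B would be the mutant side, and no genotype was assigned from the values. The deposited values are treated as normalised expression of unstated unit. With 1 column a side there is no replicate spread, no test could be run, and "higher" and "lower" describe these columns only. The sums were 19343986 for side A and 19135221 for side B, and whether these are read totals is not known. Hand2 read 4749 on side A against 2001 on side B, and Gata3 1105 against 1050. The sides also differed in sex-linked, skeletal muscle and sensory neuron transcripts, whose values follow below. Fewer cells of a type and less RNA per cell cannot be told apart in pooled tissue.

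Slc6a2 and Slc18a1 were lower on side B by more than 1.2-fold, and Slc18a2, Cyb561, Maoa and Maob lay within it. Of all 12043 genes with a mean value of 50 or more, 8.15% were at least 1.2-fold lower on side B and 7.02% at least 1.2-fold higher, on the log2(value + 1) scale. At 1.5-fold lower, the 1 member was Slc18a1, against a background of 1.47%, and no member reached 2-fold lower, where the background was 0.448%. The median log2 ratio of B to A over the 6 was -0.08, against 0.0026 over the 12043 genes. As deposited, 5 members were lower and 1 higher, where 48.8% of the 12043 genes were lower. With both columns scaled so that the median ratio of pan-neuronal genes is 0, 3 were lower and 3 higher, since Cyb561 and Maob changed sign. Together the 6 genes came to 231656 on side A against 201061 on side B, and Slc6a2 alone made up 96.1% of the difference.

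**Figure D1:**
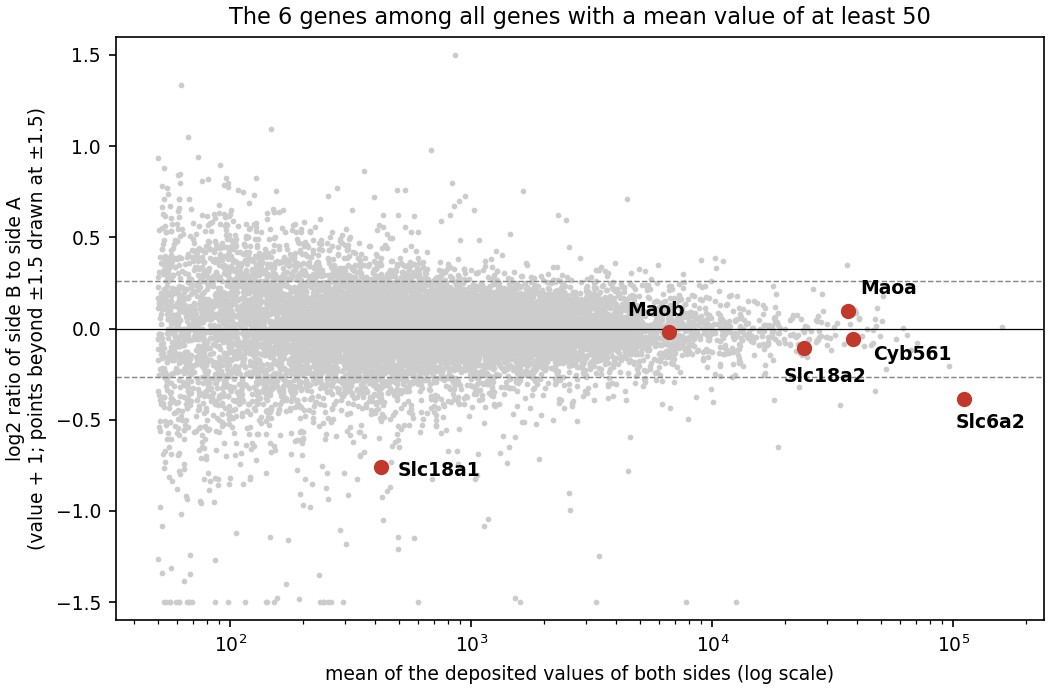
Log2 ratio of side B to side A (value + 1, vertical axis) against the mean of the deposited values (horizontal axis, log scale) for the 12043 genes with a mean of 50 or more, in grey, with the 6 genes in red. Dashed lines mark 1.2-fold. Slc6a2, at a log2 ratio of -0.39, lies below the narrow band of the most abundant genes, and Slc18a1, at -0.76, lies at the lower edge of its range of values.

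Slc6a2, the noradrenaline transporter gene, read 125271 on side A against 95865 on side B. This is 1.31-fold lower, a log2 ratio of -0.39. Slc6a2 was the gene with the second highest value of the whole table on both sides, and it took 0.648% of the sum of side A and 0.501% of the sum of side B. Its difference of -29406 was the largest in absolute terms of any gene in the table. The next, in order, were those of the noncoding RNA gene Meg3 (-13830), Dbh (-13728), the neurotrophin receptor gene Ngfr (-11163) and the complexin gene Cplx2 (-9714). Ratios were narrow among abundant genes: of 256 genes with a mean value of 10000 or more, Slc6a2 was 1 of the 6 with the lowest ratios, beside Meg3, the receptor gene Ret, Cplx2, the granin gene Chgb and the serotonin receptor gene Htr3a. Of the 7 other genes within 2-fold of its mean value, 0.0% were at least 1.2-fold lower. The authors' deposited table gives Slc6a2 a p of 0.000864 and an adjusted p of 0.175. Of the 16990 genes with a p in the authors' deposited table, 2.05% have a p under 0.05 and 0.365% an adjusted p under 0.05.

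In these columns Slc6a2 differed by more than the genes that make its substrate. Per kilobase of transcript, Slc6a2 stood at 0.838 of the level of the tyrosine hydroxylase gene Th on side A and 0.682 on side B. Against Dbh, the dopamine beta-hydroxylase gene, the ratio per kilobase was 0.502 on side A and 0.443 on side B. Against Slc18a2 it was 3.07 and 2.54. Relative to the median of the synthesis genes the log2 ratio of Slc6a2 was -0.48, and relative to the pan-neuronal median it was -0.30. Each scaling shifts the log2 ratio of every gene alike, by about -0.09 and 0.08. Slc6a2 thus stayed beyond 1.2-fold lower under both by the size of the shift alone. Of the 18 pan-neuronal genes 3 were themselves at least 1.2-fold lower and 0 at least 1.2-fold higher, where 8.15% of all 12043 genes were lower. These 3 were the neurofilament genes Nefm (log2 ratio -0.49), Nefl (-0.33) and Nefh (-0.32). The authors' deposited table gives Nefm an adjusted p of 0.0259. A difference of this size was thus not particular to Slc6a2 among neuronal genes. These comparisons between genes have no error, as the values have no replicates.

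Slc6a2 is 1 of 17 Slc6 genes of sodium- and chloride-coupled transporters in the table, a family looked up after the values had been seen. Per kilobase it made up 87.7% of the family's level on side A and 84.3% on side B. Of the 11 other members with a mean value of 20 or more, 4 were lower and 7 higher. Slc6a15, a neutral amino acid transporter of neurons, was the next in value at 5373 on side A and 5193 on side B. Slc6a12, a betaine and GABA transporter gene, was the 1 other member at least 1.2-fold lower, with values of 239 and 139.

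Other routes for monoamine uptake were present at lower levels. Slc29a4, which encodes the plasma membrane monoamine transporter, read 6046 on side A against 5375 on side B, a log2 ratio of -0.17. Slc6a4, which encodes the serotonin transporter, had 648 and 835, a log2 ratio of 0.37. The latter is a higher value on side B, opposite in sign to Slc6a2. Slc22a3, the extraneuronal monoamine transporter gene, had only 23 and 19, and Slc6a3, the dopamine transporter gene, had 5 and 22. Slc22a2, an organic cation transporter gene, is listed at 0 on both sides. The authors' deposited table gives each of these genes that has one an adjusted p of 1. Among genes that encode proteins reported to bind or regulate plasma membrane monoamine transporters, Stx1a (syntaxin 1A) had 2268 and 2198, Pick1 731 and 738, Prkca (protein kinase C alpha) 4177 and 3879 and Ppp2ca (the catalytic subunit of protein phosphatase 2A) 6581 and 6998. These 4 lay within 1.2-fold.

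Slc18a2 encodes VMAT2, the vesicular monoamine transporter of sympathetic neurons and the target of reserpine. Its value was 24950 on side A against 23133 on side B, a log2 ratio of -0.11. Of the 186 other genes within 2-fold of its mean value, 29 had a ratio as low or lower. Relative to Th, the level of Slc18a2 per kilobase was 0.273 on side A and 0.269 on side B, nearly the same.

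Slc18a1 encodes VMAT1, the form best known from chromaffin and enterochromaffin cells. Its value was 533 on side A against 314 on side B. This is 1.70-fold lower, a log2 ratio of -0.76. Of 4450 other genes within 2-fold of its mean value, 28 had a ratio as low or lower, and 0.989% were at least 1.5-fold lower. Slc18a1 moved from place 6613 in the order of values on side A to 8346 on side B. In the authors' deposited table its p was 0.00236 and its adjusted p 0.368.

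VMAT2 was by far the main vesicular form. The level of Slc18a2 per kilobase was 38.5 times that of Slc18a1 on side A and 60.6 times on side B. Markers of chromaffin or small intensely fluorescent cells were looked at beside Slc18a1. Of that list of 6, which includes Slc18a1 itself, 4 had a mean value of 20 or more. All 4, Slc18a1 among them, were lower on side B. Of the 12043 genes with a mean value of 50 or more, 48.8% were lower. The 4 stayed lower under every scaling by arithmetic, as each shift was smaller than their smallest log2 ratio in size, Chga at -0.14. The values of the list came to 17095 on side A against 13606 on side B. Most of this sum is Chga and Chgb, granin genes that sympathetic neurons also express, with 5023 and 4565 and with 11500 and 8698. Pnmt, the enzyme gene that defines adrenaline-making cells, had 5 and 4, Dgkk had 6 and 4, and the proenkephalin gene Penk had 28 and 21. The part of such cells in the Slc18a1 value was not tested. Slc18a3, the vesicular acetylcholine transporter gene of the same family, had 145 and 148, and Slc18b1 (listed as 1110021L09Rik), which encodes a vesicular polyamine transporter, had 415 and 437.

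**Figure D2:**
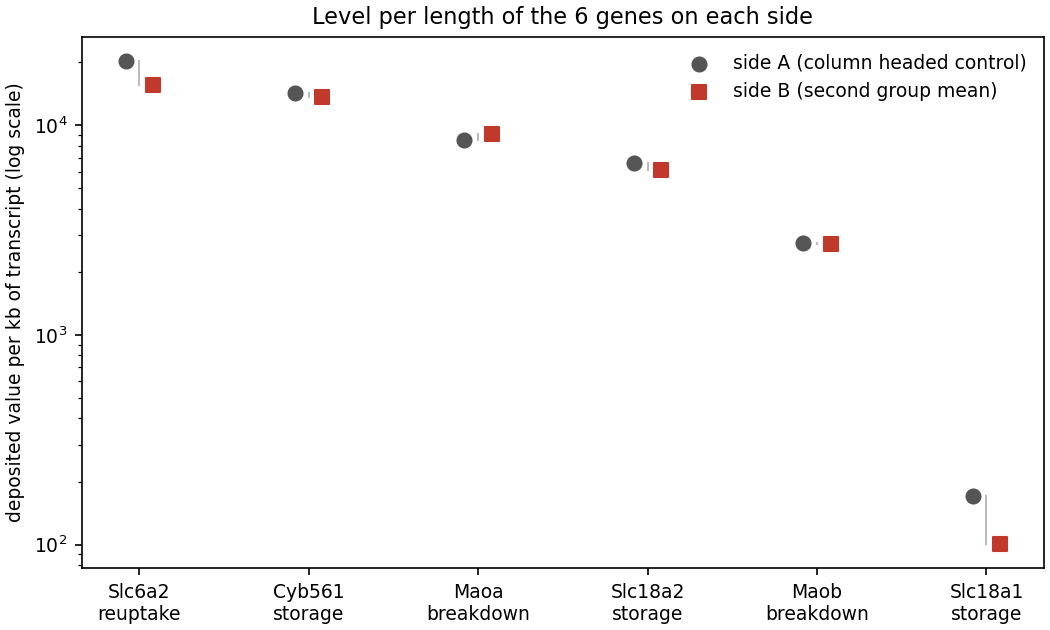
Deposited value per kilobase of the longest coding transcript (vertical axis, log scale) for the 6 genes on side A (grey circles) and side B (red squares), with no replicates and so no error bars. The order runs from Slc6a2 at 20247 and 15495 to Slc18a1 at 171 and 101 and is the same on both sides, with Slc18a2 far above Slc18a1.

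Cyb561 encodes cytochrome b561, and in humans its loss leads to noradrenaline deficiency with orthostatic hypotension. Its value was 39000 on side A against 37470 on side B, a log2 ratio of -0.06, which turned to 0.023 when the pan-neuronal median was set to 0. Its level per kilobase was 14228 on side A and 13670 on side B, the second of the 6 genes on both. Relative to Dbh, the enzyme it serves, the ratio per kilobase was 0.353 on side A and 0.391 on side B. Its relatives were much lower in value: Cyb561d1 had 575 on side A and a log2 ratio of -0.04, Cyb561d2 had 406 and 479, Cyb561a3 (listed as Cybasc3) 257 and 240, and the duodenal form Cybrd1 58 and 82. Slc23a2, the sodium-coupled ascorbate transporter gene of neurons, read 1610 and 1779 (log2 ratio 0.14). Of the 7 genes of the b561 and ascorbate list 5 had a mean value of 20 or more, with 2 lower and 3 higher.

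The pump that powers vesicle loading, the vesicle membrane proteins and the granins had members in either direction. Of 23 genes 22 had a mean value of 20 or more, of which 10 were lower and 12 higher, with a median log2 ratio of 0.0039. Setting the pan-neuronal median to 0 made this 5 lower and 17 higher, and setting the synthesis median to 0 made it 17 lower and 5 higher. The proton pump subunits lay close together, from Atp6v0a1, with values of 13721 and 12038, to Atp6v0b, with 5450 and 6034. Beyond 1.2-fold lower lay 2 of the 22, Chgb and Sv2c, a synaptic vesicle glycoprotein gene with 7649 and 5659. This share is near that of all genes at the same minimum, 9.87%, and so is not a result about the list. Scg2, the secretogranin II gene, had 11224 on side A and 12772 on side B. Slc17a9, the vesicular nucleotide transporter gene, had only 3 and 1.

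Maoa, the oxidase form that prefers noradrenaline and serotonin, was the 1 member with a higher value on side B under every scaling tried. It read 35262 on side A against 37734 on side B, a log2 ratio of 0.10, which fell to 0.0059 when the synthesis median was set to 0. Of the 93 other genes within 2-fold of its mean value, 7 had a ratio as high or higher. Maob, the form that prefers phenylethylamine, had 6640 and 6545, a log2 ratio of -0.02, which turned to 0.060 when the pan-neuronal median was set to 0. Per kilobase, Maoa stood at 3.07 times the level of Maob on side A and 3.34 times on side B. The authors' deposited table gives Maoa and Maob a p of 0.405 and 0.872, and an adjusted p of 1 for both. Relative to Maoa, Slc6a2 went from 2.39 per kilobase on side A to 1.71 on side B.

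Both oxidase genes lie on the X chromosome, and sex-linked transcripts were unequal between the sides. Xist, the RNA that coats the inactive X, had 114 on side A and 1595 on side B, and 4 Y-linked genes (Ddx3y at 1206, Eif2s3y at 587, Uty at 483, Kdm5d at 282 on side A) are given as 0 on side B. Maoa had the highest value of the 589 X-linked genes with a value above 0, and Maob was at place 26. Among 407 X-linked genes with a mean value of 50 or more, 187 were lower and 215 higher, with a median log2 ratio of 0.0090, and for autosomal genes it was 0.0024. Of these X-linked genes 6.63% were at least 1.2-fold lower and 6.63% at least 1.2-fold higher. The part of the sex of the pooled mice in the Maoa and Maob values was not tested.

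Enzymes that act beside or after monoamine oxidase had small differences for the most part. Aldh2, whose product oxidises the aldehyde made by monoamine oxidase, read 2920 on side A against 2945 on side B. Akr1a4, an aldehyde reductase gene that leads to the glycol product, had 11927 and 13493, a log2 ratio of 0.18. Sult1a1, a phenol sulfotransferase gene, had 115 and 195, the highest ratio of the list at 0.76, and its adjusted p is 1 by the authors' deposited table. Aldh1a1, a cytosolic aldehyde dehydrogenase gene, had 299 and 398, and the aldehyde oxidase gene Aox1 went the other way with 157 and 128. Akr1b3, the aldose reductase gene, read 1 on side A and 0 on side B. Sequence shared with other genes was checked for the 6 members only, so absence of this transcript cannot be read from these values. Of the 12 genes 11 had a mean value of 20 or more. As deposited 3 of these were lower and 8 higher, where 48.8% of the 12043 genes with a mean value of 50 or more were lower. Setting the pan-neuronal median to 0 made this 2 lower and 9 higher, and setting the synthesis median to 0 made it 6 lower and 5 higher.

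Synthesis genes were the reference for part of these comparisons. Th had 47123 and 44280 and Dbh 102922 and 89194, while Ddc, the decarboxylase gene that makes dopamine, had 36977 and 37687. The genes of tetrahydrobiopterin, the cofactor of tyrosine hydroxylase, were higher on side B: Gch1 had 7474 and 8371, Pts 751 and 862, Spr 1094 and 1288, Qdpr 3782 and 3982 and Pcbd1 2946 and 3178. None of the 8 with a mean value of 20 or more reached 1.2-fold in either direction, with a median log2 ratio of 0.09. That median lies above 0 because the cofactor genes outnumber the abundant enzymes, so setting it to 0 lowers every other ratio by 0.09. With it at 0, Qdpr and Ddc had lower values on side B, as Th and Dbh did.

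**Figure D3:**
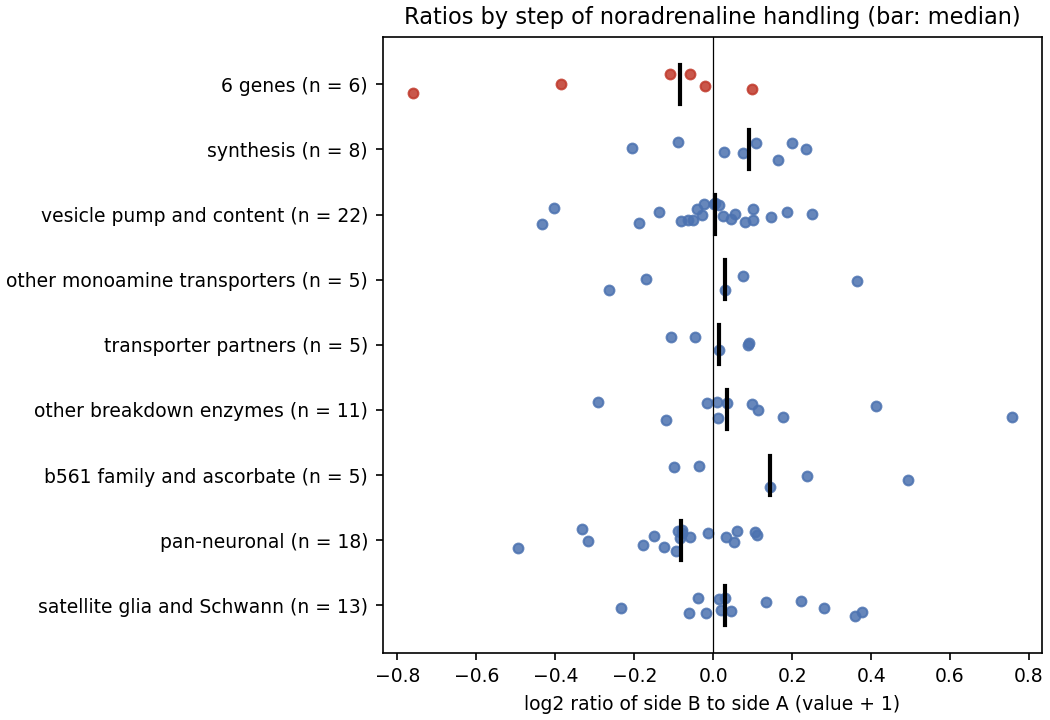
Log2 ratio of side B to side A (value + 1, horizontal axis) for the 6 genes (red), for lists of genes of the same pathway and for 2 cell type lists (blue), limited to genes with a mean value of 20 or more. Each point is 1 gene and the black bar is the median of the list. Slc18a1 and Slc6a2 lie left of every synthesis gene and the other 4 members lie between -0.11 and 0.10.

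The markers of other cells in the ganglion were measured on the same sides. The 18 pan-neuronal genes, with a median log2 ratio of -0.08, were 13 lower and 5 higher, and their values summed to 372194 and 364679. The 13 genes of satellite glia and Schwann cells had a median of 0.03 and sums of 49982 and 54474. Of the 9 mast cell genes, a cell type that also uses VMAT2, 1 (Kit, with 443 and 527, which other cells also express) had a mean value of 20 or more, and Fcer1a was listed at 0 on both sides. The defining mast cell genes Cma1, Cpa3 and Tpsb2 had 3 and 6, 4 and 6, and 6 and 4, so they were near 0 beside the Slc18a2 values. Sensory neuron genes summed to 1053 and 295, skeletal muscle genes to 1998 and 102, macrophage genes to 2864 and 3933, fibroblast genes to 25545 and 23718, and endothelial genes to 2271 and 2419. Adipocyte genes summed to 3227 and 3183, with members in opposite directions: Cfd, the adipsin gene, read 457 and 903 (adjusted p of 0.00154, the authors' deposited table), Lpl, the lipoprotein lipase gene, 844 and 582, and Fabp4, a fatty acid binding protein gene, 1378 and 1159. The part of these cells in the values of the 6 genes was not tested. Of the noradrenergic factor genes, Phox2a had 3829 and 4038, Hand1 3236 and 3114 and Gata2 5112 and 5089.

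For each of the 6 genes, the 2 genes nearest in log2 ratio were taken among those within 2-fold of its mean value. The likeness rests on 2 columns and says nothing of shared control. For Slc6a2 the nearest was Dbh, at a log2 ratio of -0.21, which lay 0.18 from its ratio. Slc18a1 lay nearest to the interferon regulatory factor gene Irf7, with values of 553 and 325, and the prostacyclin receptor gene Ptgir, with 303 and 179. Slc18a2 lay nearest to Pja2 and Slc7a14, Cyb561 to Rtn4 and the neuronal tubulin gene Tubb3, Maoa to Tppp3 and Sardh, and Maob to Rufy3 and Napa.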

How the data were processed

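RNA from pooled ganglia was sequenced in 4 samples, 1 per genotype. The submitters' processing notes name TopHat2 2.0.8, SAMtools 0.1.19, HTSeq 0.5.4p1, DESeq and build mm9, without roles, settings, annotation or strand. Per the file headers the deposited control column and second group mean are DESeq group means, whole numbers of no stated unit, treated as a normalised score. The deposited column headed mutant expression equals their mean in all 21937 genes and was left out as a mutant value. The authors' fold is B over A. Each p-value and adjusted p-value is the authors' own, copied. The columns could be tied to no sample.

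Log2 ratios used a pseudocount of 1, which understates low genes, and folds of single genes are plain ratios. Transcript lengths (longest coding transcript), shared runs and exon overlaps came from GENCODE M21, which is GRCm38, whereas the processing notes name mm9. The GRCm38 build thus served only for names, lengths, chromosomes, promoters, shared runs and exon overlaps. No count test was run: 1 column a side leaves no error, and depth is unknown. Of 183 list entries all 183 matched a row, some through synonyms. The members and lists were chosen with earlier results of these data known. Genes were named by rule: the members, pathway genes with a mean value of 50 or more and the 4 largest ratios of each pathway list, the 2 nearest genes of each member, Hand2, Gata3, Th, Dbh, Xist and Y-linked genes. Meg3, Ret, Cplx2, Htr3a, Ngfr, the Slc6 family, single cell type markers and all genes under that minimum were named after their values were seen. Some genes that the rule would name are not reported here.

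Runs of 50 bases shared with transcripts of other genes made up 9.40% of Cyb561 and 1.39% of Slc18a2 (Gm9910 and Gm29261, antisense genes with overlapping exons), 3.98% of Maoa, 0.570% of Slc6a2 and 0.0% of Slc18a1 and Maob. Without strand, sense and antisense reads cannot be told apart. The calculation was tested on simulated columns with known fold changes and counting noise only, called at 2-fold (python 3.11.15, pandas 2.3.3, numpy 2.4.6). That test checks the arithmetic and does not bear on how reliable the 1.2-fold and 1.5-fold calls are.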

Additional observations from a re-analysis of the deposited data

How the results depend on the processing

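No paired analysis was possible because the table has 1 column a side and the columns could be tied to no sample, and for the same reason no replicate could be left out. The 6 log2 ratios were recomputed with pseudocounts of 0.5 and 10, with equal column sums (with and without the 10 highest genes) and with the pan-neuronal or the synthesis median set to 0. Slc6a2 ranged from -0.48 to -0.30 and Slc18a1 from -0.85 to -0.68, and both stayed at least 1.2-fold lower in all 6 alternatives. The scalings shift all genes alike, by about -0.09 to 0.08, and the pseudocounts hardly change values this high. That both stayed lower is therefore arithmetic and no independent support. Slc18a2 ranged from -0.20 to -0.03 and Maoa from 0.0059 to 0.18. With the pan-neuronal median at 0, Cyb561 turned to 0.023 and Maob to 0.060, by the construction of that shift of 0.08. The background depends on the minimum value. At a minimum of 20 instead of 50, 317 genes (2.41%, against 1.47%) were at least 1.5-fold lower and 186 (1.41%, against 0.681%) higher. At 2-fold these were 110 lower (0.835%, against 0.448%) and 22 higher (0.167%, against 0.0332%). Without a minimum beyond a value above 0 on both sides, 2373 genes (15.0%, against 8.15% at 50) were at least 1.2-fold lower. The order of the 6 genes by level was the same per kilobase and as deposited on side A, and on side B Maoa and Cyb561 changed places as deposited.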
